A study of Mus musculus with 6 samples.

Results

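The inner root sheath is the sleeve of cells that surrounds and moulds a growing hair. Its cells build intermediate filaments from keratins of their own, which pair a type I keratin (Krt25, Krt26, Krt27 and Krt28) with a type II keratin (Krt71, Krt72 and Krt73), and they embed the filaments in trichohyalin (Tchh), a matrix protein that is deiminated and cross-linked as the cells harden. The sheath is made while a follicle is growing and is lost when the follicle regresses and rests. These 7 keratin genes and Tchh were examined in bitten mouse ear skin. They were chosen because they lead the first principal component of these same libraries, so their large differences between libraries are a description and not a finding. All 8 were found among the 15667 genes of the table, and all 8 passed the filter of a mean of at least 1 count per 1000000 reads (CPM), as did 14306 genes in all.

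RNA-seq libraries were made from ear skin of 3 WT mice (Adipo+/+) and 3 KO mice (Adipo-/-) challenged by ticks. The KO mice lack adiponectin, a hormone of fat cells, in every tissue because of a germline null allele (Adipoq tm1Chan, on a B6;129 background), and the WT mice were littermates from heterozygous breeders. All were females of 7 to 8 weeks on which 10 nymphs of Ixodes scapularis had fed for 48 h, and 1 punch of the bite site was taken from each. Unbitten skin was not analysed here, so the groups share the bite and differ in genotype.

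The implied depth, worked out from the smallest step between low values, was 3403711 to 6591523 reads per library, and 3 reads stood for 0.455 to 0.881 CPM. Adipoq, the targeted gene, was at 30.5 to 63.7 CPM in WT libraries and at 0 to 0.560 CPM in KO libraries, so all 6 labels matched it. The skin was labelled as ear, and the 8 epidermal keratins of a marker list summed to 29370 to 53520 CPM in every library. On the first principal component, which held 52.9% of the variance of log2(CPM + 0.5), the 8 genes had ranks 1 (Krt71), 2 (Krt25), 3 (Krt27), 4 (Tchh), 5 (Krt72), 7 (Krt26), 12 (Krt73) and 14 (Krt28) by the size of their loading. The loading of Krt28 was 0.0865. Krt86 of the hair shaft, at rank 6 with a loading of 0.0913, and Krtap3-1, at rank 15 with 0.0857, lay among and just below them.

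The 8 genes lie in 3 places of the mouse genome (GRCm38, counted from 1). Krt25 (chromosome 11, 99315516 to 99322951), Krt26 (99328484 to 99337965), Krt27 (99345565 to 99351118) and Krt28 (99365007 to 99374903) stand side by side on the minus strand within 59.4 kb. Krt71 (chromosome 15, 101733949 to 101743097), Krt72 (101776172 to 101786520) and Krt73 (101793304 to 101802360) lie on the minus strand within 68.4 kb, with the pseudogene Krt74 (101754259 to 101763504) between them. Tchh (chromosome 3, 93442330 to 93449077, plus strand) lies in the epidermal differentiation complex, a run of genes for proteins of the skin barrier. The deposited starts were those of RefSeq for all 8.

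Because the 8 genes moved together, the 250 bases before each RefSeq start were read from RefSeq (GRCm38.p6), where all 8 had an entry. Sequences are shown from 5′ to 3′ on the gene's strand. They are those of Krt25 and Krt71, the type I and type II keratins of highest mean CPM over the 6 libraries. Also shown are Krt27, which held the most GATAA matches, and Tchh, which held no TATAAA. Capitals mark TATAAA (the TATA box) and GATAA or TTATC (the core bound by GATA factors, among them Gata3, a regulator of the sheath). The windows are chr11:99322952-99323201 for Krt25, chr11:99351119-99351368 for Krt27, chr15:101743098-101743347 for Krt71 (all minus strand) and chr3:93442080-93442329 for Tchh (plus strand).
Krt25: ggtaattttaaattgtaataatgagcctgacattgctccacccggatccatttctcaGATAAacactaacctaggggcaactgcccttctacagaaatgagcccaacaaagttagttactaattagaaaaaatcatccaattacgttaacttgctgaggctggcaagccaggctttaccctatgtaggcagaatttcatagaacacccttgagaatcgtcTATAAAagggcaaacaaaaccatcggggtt
Krt27: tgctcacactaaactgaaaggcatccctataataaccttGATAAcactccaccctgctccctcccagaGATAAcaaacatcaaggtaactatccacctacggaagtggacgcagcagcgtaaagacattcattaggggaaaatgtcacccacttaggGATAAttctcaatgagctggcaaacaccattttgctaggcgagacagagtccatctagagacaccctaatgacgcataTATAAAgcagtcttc
Krt71: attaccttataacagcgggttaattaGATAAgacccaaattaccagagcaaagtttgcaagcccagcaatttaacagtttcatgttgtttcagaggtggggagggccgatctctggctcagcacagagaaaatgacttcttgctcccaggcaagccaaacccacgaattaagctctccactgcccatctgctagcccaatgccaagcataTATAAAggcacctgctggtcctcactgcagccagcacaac
Tchh: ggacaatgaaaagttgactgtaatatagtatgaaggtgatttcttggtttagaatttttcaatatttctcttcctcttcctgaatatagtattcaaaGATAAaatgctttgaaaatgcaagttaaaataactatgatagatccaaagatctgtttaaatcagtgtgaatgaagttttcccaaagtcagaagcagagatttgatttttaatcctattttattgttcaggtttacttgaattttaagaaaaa

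TATAAA, searched on the gene's strand, was found in 6 of the 8 windows and in 7.55% of the 32536 RefSeq windows of this length. Its match nearest to the start began 30 bases before the start in Krt25, Krt26, Krt28 and Krt73, 40 bases before it in Krt71 and 15 bases before it in Krt27. GATAA, searched on both strands, was found in 6 of 8 (Krt26 and Krt72 held none) and in 22.5% of all windows, with 3 matches in Krt27. The homeobox core TAATT, on both strands, was found in 7 of 8 (not in Tchh) and in 25.0% of all windows. CTTTG, the core bound by Lef1 and its relatives, was found on either strand in 6 of 8 and in 48.7% of all windows. Matches of different motifs can overlap, as a GATAA and the single TAATT of Krt27 did. The motifs were chosen with the levels of the genes known, and a match is a description of letters, not a binding site.

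Values in every library are given next, beginning with the type II keratins. Krt71, the type II keratin found in all layers of the sheath, was at 0, 0.407 and 4035 CPM in WT replicates 1, 2 and 3, and at 356, 1318 and 159.5 CPM in KO replicates 1, 2 and 3. WT replicate 3 was the highest of the 6 libraries, WT replicates 1 and 2 were the lowest, and the 3 KO libraries lay between them. Krt72, a keratin of the sheath cuticle, was at 0, 0 and 397 CPM over the WT replicates, against 33.7, 185 and 5.88 CPM over the KO replicates. Krt73, also of the cuticle, was at 0.242, 0 and 429 CPM in WT libraries and 24.6, 133 and 19.1 CPM across KO. In both genes the WT values again lay on either side of all KO values.

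Of the type I keratins, Krt25 was at 0, 0.610 and 2128 CPM over the WT replicates, against 178, 673 and 78.7 CPM over the KO replicates. Krt27 was at 0.242, 0.203 and 1608 CPM in WT libraries and 141, 607 and 62.6 CPM across KO. These were the more abundant type I genes and, like Krt28, are found in all layers of the sheath. Krt28 was at 0, 0.407 and 333 CPM over the WT replicates, against 24.0, 139 and 9.70 CPM over the KO replicates. Krt26, a keratin of the sheath cuticle, was at 0, 0 and 323 CPM in WT libraries and 22.3, 148 and 8.23 CPM across KO. Tchh, which the medulla of the hair shaft also makes, had the highest CPM of the 8 in each library, at 7.99, 7.73 and 12906 CPM over the WT replicates, against 1005, 5755 and 558.8 CPM over the KO replicates. All 8 genes had the same order of the 4 upper libraries, from WT replicate 3 through KO replicates 2, 1 and 3, and in none did the KO values lie wholly to one side of the WT values.

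**Figure D1:**
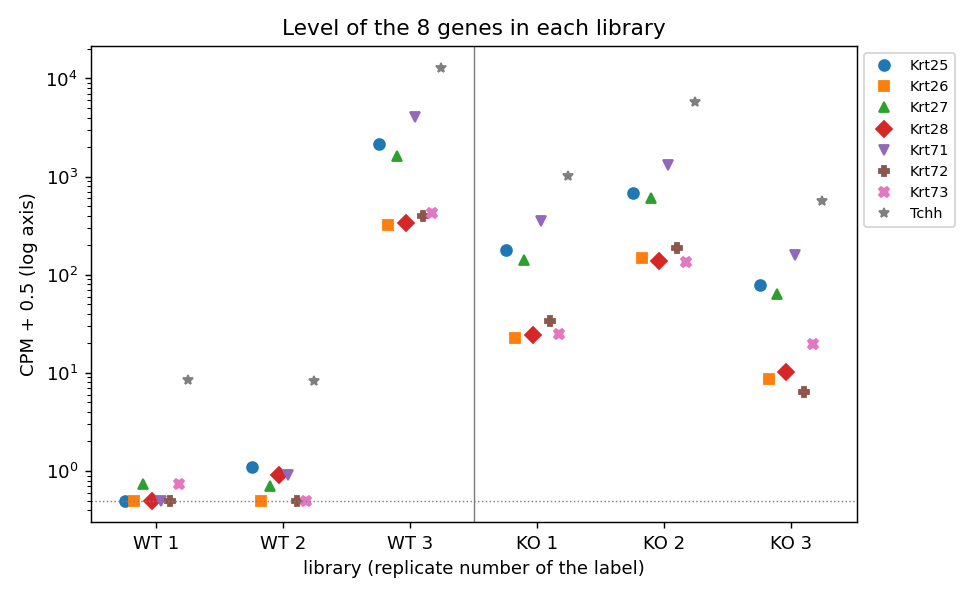
Level of each of the 8 genes (CPM + 0.5, log axis) in the 3 WT and 3 KO libraries, with 1 point per gene and library and a dotted line at 0 CPM. In WT replicates 1 and 2 all 7 keratins sit at or just above the line while Tchh is near 8 CPM, and in WT replicate 3 every gene is at its highest.

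The 8 genes together took 2.22% of WT replicate 3, 0.896% of KO replicate 2, 0.178% of KO replicate 1 and 0.0903% of KO replicate 3. They took 0.000847% of WT replicate 1 and 0.000936% of WT replicate 2. In reads, the 7 keratins totalled 2 in WT replicate 1, 8 in WT replicate 2 and 56129 in WT replicate 3. In bulk skin, fewer sheath cells and less RNA per cell cannot be told apart.

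At these depths the size of the gap within WT can only be bounded for several genes. Krt71 had 0 reads in WT replicate 1, and against a floor of 3 reads in that library WT replicate 3 was at least 5557-fold higher. On the same floor Krt25 was at least 2930-fold higher and Krt26 at least 445-fold higher. Krt71 had 2 reads in WT replicate 2, which was 0.0101% of the level in WT replicate 3 (95% exact binomial interval 0.00122 to 0.0364%). Intervals and floors here cover counting error only.

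Tchh did not fall to the floor with the keratins. Its 33 reads in WT replicate 1 and its 38 reads in WT replicate 2 were 0.0619% (interval 0.0426 to 0.0869%) and 0.0599% (0.0424 to 0.0822%) of its level in WT replicate 3. Its share of the summed CPM of the 8 genes was 94.3% and 82.6% in these libraries, against 56.3% to 64.2% in the other 4. Krt27, the keratin with 1 read in each of these libraries, stood at 0.0151% (0.000381 to 0.0839%) and 0.0127% (0.000320 to 0.0705%) of its level in WT replicate 3, and these intervals overlap those of Tchh. Krt71 lay below Tchh in both, with upper limits of 0.0221% in WT replicate 1 and 0.0364% in WT replicate 2. Krt25 lay below it in WT replicate 1, with an upper limit of 0.0420%, and overlapped it in WT replicate 2 (0.00591 to 0.0838%). The limits of Krt26, Krt28, Krt72 and Krt73 overlapped those of Tchh in both.

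Spread between libraries of a group was much larger for these genes than for most, which is what they were chosen for. The SD of log2(CPM + 0.5) among WT libraries had a median of 5.84 over the 8 genes and 0.233 over all genes tested. Among KO libraries the medians were 1.70 and 0.225. The mean of log2(CPM + 0.5) over the 8 genes, used as their score, was -0.35, -0.07 and 10.18 for WT libraries and 6.49, 8.80 and 5.27 for KO, a range of 10.53.

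KO was compared with WT by limma on log2(CPM + 0.5). The 8 genes were chosen for differences between these libraries that are large within WT. Such a choice favours large errors and overlapping values, so neither the counts called nor the overlap is evidence about genotype. None of the 8 genes reached an unadjusted p below 0.05, and 0 passed at an adjusted p below 0.05. Among all genes tested 2.88% had an unadjusted p below 0.05 (1.06% higher and 1.82% lower in KO), and 0.0140% passed after adjustment. The higher and lower genes numbered 152 and 260. They became 210 and 215 after median-of-ratios scaling and 232 and 193 after quantile normalization. With the gene Rn45s left out of the library total they were 181 and 224. With limma voom on implied reads 0 of the 8 were called as well. The log2 fold changes (KO minus WT) were 5.11 for Krt71 (SE 3.06, 95% interval -1.97 to 12.19, adjusted p = 0.998) and 4.33 for Krt25 (SE 2.82, -2.20 to 10.85, adjusted p = 0.998). They were 4.22 for Krt27, 3.94 for Tchh, 2.90 for Krt73, 2.89 for Krt72, 2.84 for Krt26 and 2.61 for Krt28, each with an adjusted p of 0.998 in limma. The median over the 8 was 3.42, against -0.03 over all genes tested. KO and WT values overlapped in all 8, whereas they did not overlap in 7.84% of all genes tested (2.95% with the KO values higher).

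The direction of these differences depended on the scale. On the log scale all 8 were higher in KO, with 2 of 3 WT libraries near 0. On the linear scale the KO mean was the lower in all 8. Krt71 averaged 1345 ± 2330 CPM across WT libraries and 611 ± 620 CPM across KO. Tchh averaged 4307 ± 7447 CPM across WT and 2440 ± 2880 CPM across KO (all ± SD, n = 3). The SD exceeded the mean in both groups for both genes.

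WT replicate 3 decided the outcome of the comparison. Without it, all 8 genes were higher in KO at an unadjusted p below 0.05 (2.20% of all genes tested were), all 8 had KO values wholly above the WT values (7.95% of all genes) and 5 passed at an adjusted p below 0.05 in limma (0.0982% of all genes). The 5 were Krt71 (log2 fold change 9.29, SE 0.72, adjusted p = 0.00438), Krt25 (8.15, SE 0.75, adjusted p = 0.00924), Krt27 (7.93, SE 0.75, adjusted p = 0.00930), Tchh (7.47, SE 0.78, adjusted p = 0.0163) and Krt73 (6.05, SE 0.72, adjusted p = 0.0392). Krt26 and Krt28 had an adjusted p of 0.0781 and Krt72 of 0.116 in limma. With the other 2 WT libraries at or near 0, the size of these fold changes rests on the added 0.5 CPM. Krt26 and Krt72 were at 0 in both, and against a floor of 3 reads in the shallower (0.726 CPM) their log2 difference was at least 5.37 and 5.52. The median over the 8 was 6.79 as fitted and 6.76 with this pair at its bound. Since the genes were chosen on these libraries, neither the counts nor the SEs, intervals and adjusted p are evidence about genotype. For the keratins the SEs and adjusted p also rest in part on the added 0.5 CPM. Leaving out WT replicate 1 or 2 instead lowered the median log2 fold change of the 8 to 1.79 or 1.75, and without KO replicate 2 it was 2.49.

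**Figure D2:**
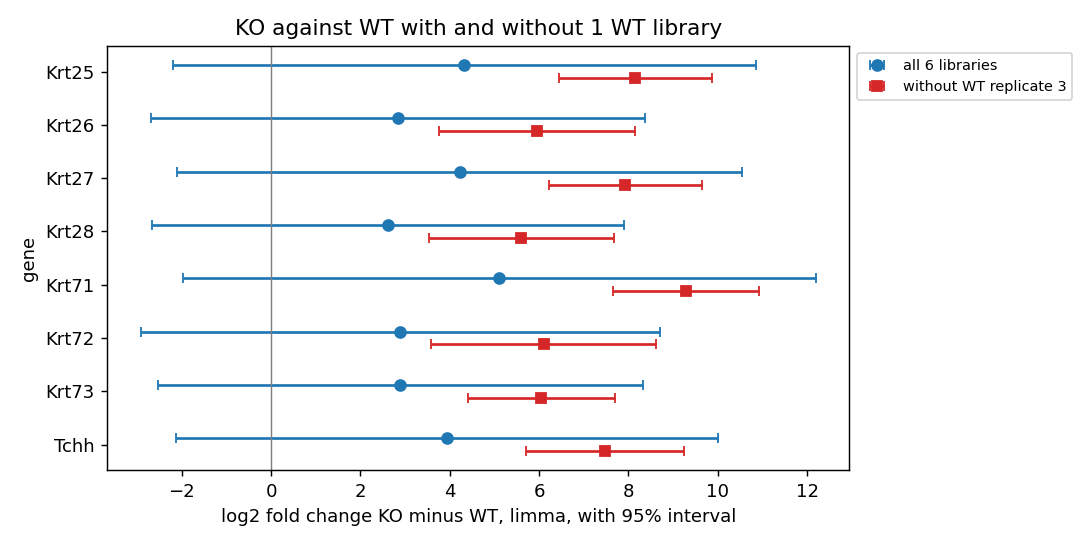
Log2 fold change (KO minus WT) of each gene from limma with its 95% interval, for all 6 libraries (circles) and without WT replicate 3 (squares). With all libraries every interval crosses 0, and without WT replicate 3 the values run from 5.60 for Krt28 to 9.29 for Krt71 and no interval reaches 0. The genes were chosen on these libraries, so the intervals without WT replicate 3 are no evidence about genotype.

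Next, the make-up of the keratin set was compared between the 4 libraries that held at least 20 reads of each gene. The summed type II level was 0.920, 0.938, 0.867 and 0.95 times the summed type I level in WT replicate 3 and KO replicates 1, 2 and 3, as CPM per kb of transcript (GENCODE M21 lengths). The type II sum was the lower in all 4, while the type I sum itself ranged from 89.3 to 2443 CPM per kb. Per kb, Krt71 made up 36.9% to 41.9% of the keratin total, Krt25 20.7% to 22.8% and Krt27 22.1% to 24.0%. Each of the others made up at most 5.80%. Per kb, Tchh (2216 CPM per kb in WT replicate 3) stood 1.20-fold above Krt71 (1846 CPM per kb) in that library, against 3.20-fold in CPM.

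Some ratios between the genes varied little across these libraries and others varied more. The ratio of Krt71 to Krt25 in CPM was 1.90, 2.0, 1.96 and 2.03 in WT replicate 3 and KO replicates 1, 2 and 3, and the intervals of all 4 overlap (1.86 to 1.94 in WT replicate 3, and 1.75 to 2.35 in KO replicate 3). This is a spread of 1.07-fold, over libraries in which Krt71 itself ranged 25.3-fold. Krt27 to Krt25 spread 1.19-fold (0.756 in WT replicate 3 and 0.903 in KO replicate 2), and Krt28 to Krt25 spread 1.67-fold. Of the cuticle keratins, Krt72 to Krt71 was 0.0984, 0.0945, 0.141 and 0.0368 in the same order, with intervals of 0.129 to 0.153 in KO replicate 2 and 0.0223 to 0.0575 in KO replicate 3, a spread of 3.82-fold. Krt26 to Krt25 was highest in KO replicate 2 (0.220, interval 0.1998 to 0.242) and lowest in KO replicate 3 (0.104, 0.0681 to 0.154). This was not particular to cuticle keratins. Krt28 to Krt25 was also highest in KO replicate 2 (0.206, 0.187 to 0.227) and lowest in KO replicate 3 (0.123, 0.0830 to 0.177). Krt73 to Krt71 did not follow them, being lowest in KO replicate 1 (0.0690, 0.0584 to 0.0809) and highest in KO replicate 3 (0.120, 0.0911 to 0.155). The rank of KO replicate 3 lay within counting error in all of these ratios to Krt25 or Krt71 except Krt72 to Krt71. Its interval overlapped those of WT replicate 3 and KO replicate 1 for Krt26 and Krt28. For Krt73 it overlapped those of WT replicate 3 and KO replicate 2. Tchh to Krt71 was 3.20, 2.82, 4.37 and 3.5. The intervals cover counting error, and with 1 WT library among the 4 a comparison of these ratios by genotype could not be tested.

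**Figure D3:**
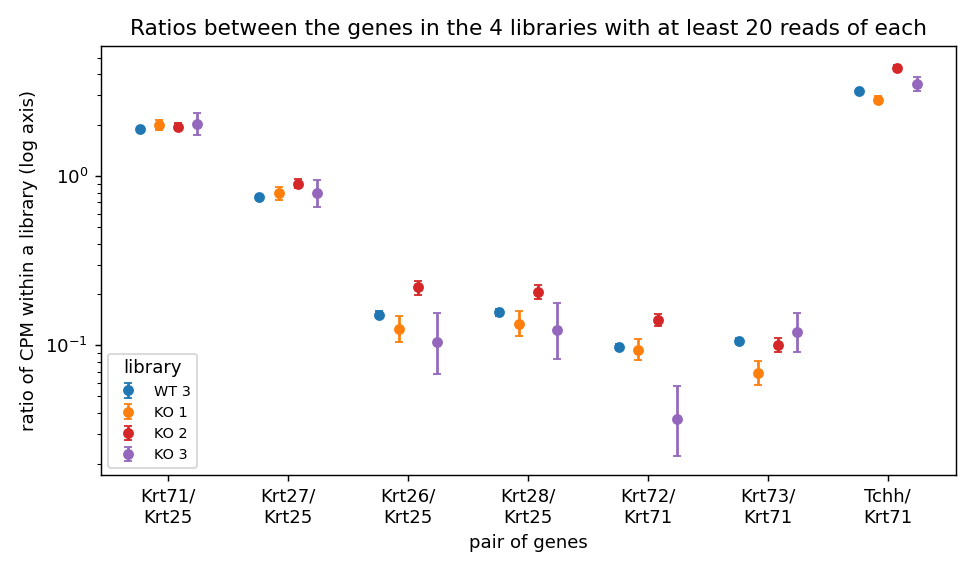
Ratio of CPM between pairs of the 8 genes (log axis) in WT replicate 3 and KO replicates 1, 2 and 3, with 95% exact binomial intervals from implied reads. Krt71 to Krt25 is near 2 in all 4 libraries, while Krt72 to Krt71 runs from 0.0368 to 0.141.

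The neighbours of the genes on the chromosome were then examined, chosen by position alone. Next to the type I block, Krt24 on one side was at 50.4 to 194 CPM and Krt10, a keratin of the upper epidermis, on the other at 8608 to 15152 CPM in the 6 libraries. Next to the type II block, Krt5 of the basal epidermis was at 4810 to 7322 CPM and Krt2, of the upper epidermis, at 3887 to 15156 CPM. The range between libraries on the log2(CPM + 0.5) scale was 0.61 to 1.96 for these 4 flanking genes and 9.34 to 12.98 for the 7 sheath keratins. Krt74, inside the type II block, is listed by RefSeq as a transcribed pseudogene in the mouse, and it had 0 to 6 reads per library. Beside Tchh, Tchhl1 (trichohyalin-like 1) was at 0.726, 1.22 and 342 CPM in WT libraries and 35.0, 128 and 18.8 CPM across KO, whereas Rptn (repetin), its neighbour on the other side, was lowest in KO replicate 2 (38.7 CPM) and WT replicate 3 (40.6 CPM).

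Partners of the sheath proteins were taken from a list of 12 genes, of which 11 were tested. None reached an unadjusted p below 0.05, and the median log2 fold change was 0.18. Padi1 and Padi3, peptidylarginine deiminases that turn arginines of trichohyalin into citrulline, followed the 8 genes. Padi3 was at 0, 0.407 and 259 CPM over the WT replicates, against 21.4, 101 and 8.81 CPM over the KO replicates (log2 fold change 2.49, SE 2.18, adjusted p = 0.998 in limma). Padi1 was at 0.726, 0.610 and 75.0 CPM in WT libraries and 14.2, 43.3 and 11.8 CPM across KO. Lpar6, a lysophosphatidic acid receptor needed for hair growth and named here for its order after its values were seen, followed with a narrower span, from 7.99 CPM in WT replicate 1 to 18.0 CPM in WT replicate 3. The other partners did not share this order. Gata3, which the epidermis also expresses, was at 251, 384 and 402 CPM over the WT replicates, against 359, 399 and 415 CPM over the KO replicates. Tgm3, a transglutaminase that cross-links trichohyalin and also acts in the epidermis, was highest in WT replicate 1 (246 CPM) and at 65.3 CPM in WT replicate 3. Cdsn (corneodesmosin) was at 937 to 1229 CPM throughout.

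Across the 6 libraries, the genes whose log2(CPM + 0.5) followed the score of the 8 most closely were mostly of the hair shaft or of the sheath's hardening machinery. Of 14298 other genes, the 10 with the highest Pearson r were Krt86 (0.998), Krtap1-4 (0.998), Krt34 (0.998), Padi1 (0.998), Tchhl1 (0.998), Krtap4-1 (0.997), Crnn (0.997), Krtap1-3 (0.997), Lrrc15 (0.996) and Krt81 (0.996). Krt34, Krt81 and Krt86 are keratins of the hair shaft, and the Krtap genes encode the proteins between shaft filaments. Crnn (cornulin, chromosome 3, 93144789 to 93149818) belongs with Tchh and Tchhl1 to the S100 fused-type proteins, and was at 0, 0.203 and 202 CPM in WT libraries and 19.4, 79.3 and 7.64 CPM across KO. Among genes whose symbols do not begin with Krt, Padi3 (0.995) came next after Padi1, Tchhl1, Crnn and Lrrc15. An r of at least 0.95 was found for 96 genes, 40 of them with symbols that begin with Krt. These correlations are a description over 6 libraries, and the 2 libraries at the floor carry much of each.

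The hair shaft keratins, which harden beside the sheath in the same follicle, were compared with the 8 genes. All 16 on the list were tested, 0 reached an unadjusted p below 0.05 in limma, and their median log2 fold change was 1.93. In 12 of the 16 the 4 upper libraries had the same order as in the 8 genes. The share of all genes tested with this order was not worked out. The 7 sheath keratins summed to 3.52, 5.10, 3.63 and 3.35 times the CPM of the shaft keratins in WT replicate 3 and KO replicates 1, 2 and 3. The level in KO replicate 2 was 31.0% to 46.7% of that in WT replicate 3 over the 8 genes. Over the shaft keratins it was 18.6% to 41.3%, apart from Krt84, which was highest in KO replicate 2 and stood at 113%. These ranges overlap, and no difference between the families was tested. Krt75, the keratin of the companion layer that adjoins the sheath, was at 6.54, 9.15 and 297 CPM over the WT replicates, against 32.8, 128 and 23.5 CPM over the KO replicates.

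Regulators of the hair matrix, the dividing cells from which sheath and shaft arise, were examined next. Among 12 hair matrix regulators, 11 were highest in WT replicate 3 and 6 shared the order of the 8 genes, with 0 of 12 at an unadjusted p below 0.05 and a median log2 fold change of -0.04. Hoxc13, a homeobox factor that drives hair keratin genes, was at 1.21, 3.46 and 67.3 CPM in WT libraries and 8.95, 30.0 and 8.81 CPM across KO. Foxn1, needed for keratinization of the hair, was at 15.98, 16.5 and 49.8 CPM over the WT replicates, against 21.7, 33.9 and 18.2 CPM over the KO replicates. The 12 regulators stood in KO replicate 2 at a median of 52.6% of their level in WT replicate 3, against 39.7% for the 8 sheath genes. They ran from 10.4% for Shh, a signal of growing hair bulbs that had 3 reads in KO replicate 2 and kept the order of the 8 genes, to 98.8% for Wnt10a, both named after their values were seen. Shh also had 3 reads in KO replicate 1, so its order rests on few reads. A difference between the 2 sets of genes was not tested.

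Melanocytes, which pigment the growing hair, were followed through 8 genes, of which 7 were measured. Dct, an enzyme of pigment synthesis, was at 2.42, 1.22 and 33.1 CPM in WT libraries and 3.03, 1.12 and 3.23 CPM across KO. It was thus high in WT replicate 3 alone. In KO replicate 2 the 7 melanocyte genes, 2 of them without a read there, stood at a median of 4.05% of their level in WT replicate 3, against 39.7% for the 8 sheath genes. Mitf, a melanocyte regulator that other skin cells also express, was the highest of the 7 at 54.9%. Of the 5 melanocyte genes tested, 0 reached an unadjusted p below 0.05 in limma. The contrast rests on 1 library of each genotype and was not tested.

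**Figure D4:**
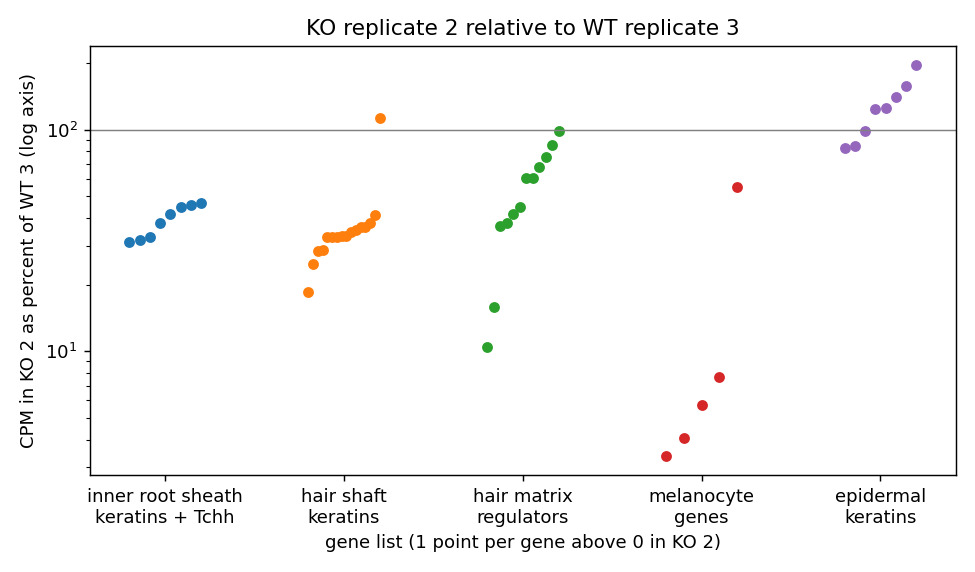
Level in KO replicate 2 as a percent of that in WT replicate 3 (log axis), with 1 point per gene above 0 in KO replicate 2 and a line at 100%. The 8 sheath genes lie between 31.0% and 46.7%, most melanocyte genes lie below 10% and the epidermal keratins lie around the line.

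Levels of other cell types also varied between libraries, some of them opposite to the 8 genes. Their part in the differences between libraries was not tested. Of the neutrophil list, 8 of 8 were measured, and they summed to 626, 212 and 33.0 CPM over the WT replicates, against 213, 93.9 and 97.0 CPM over the KO replicates, highest in WT replicate 1 and lowest in WT replicate 3. Krt6a, a keratin induced in injured epidermis, was likewise highest and lowest in these libraries, at 4343, 1932 and 351 CPM in WT libraries and 1849, 397 and 939.8 CPM across KO. Krt16, its type I partner, was at 3334, 1356 and 81.8 CPM over the WT replicates, against 1885, 290 and 1040 CPM over the KO replicates. Krt17, which the outer root sheath and injured epidermis both make, was instead lower in every KO library, at 499, 497 and 418 CPM against 858, 842 and 775 CPM in WT (log2 fold change -0.81, unadjusted p = 8.54e-05, adjusted p = 0.340 in limma). Epidermal keratins summed to 41310, 41257 and 29370 CPM in WT libraries and reached 53520, 39128 and 51607 CPM in KO. Proliferation genes, with Mki67 at 273 CPM in WT replicate 3 and 269 to 529 CPM in the other libraries, were not highest in WT replicate 3 for any of the 8 on the list. Of dermal papilla genes 8 of 10 were in the table, with sums of 40.1 to 75.2 CPM. Sebaceous gland genes summed to 3163 to 5756 CPM, adipocyte genes to 235 to 656 CPM and skeletal muscle genes to 2775 to 5747 CPM. The bulge and outer root sheath list summed to 9689 to 16026 CPM, most of it Krt14 and Krt5 of the basal epidermis. Of the 8 genes on this list, 4 were highest in WT replicate 3, and 0 shared the order of the sheath genes, again without a share over all genes. Lhx2 was at 2.66, 5.09 and 25.6 CPM in WT libraries and 6.37, 12.6 and 6.76 CPM across KO. Lgr5 and Sox9 were likewise highest in WT replicate 3 with KO replicate 2 next, whereas Krt14 and Krt5 were lowest in WT replicate 3. Of the 6 S100 fused-type proteins listed, 5 were measured, and the list left out Crnn. Flg2 and Hrnr of the epidermal barrier were at 1614 to 2803 CPM and 1624 to 3275 CPM. At an unadjusted p below 0.05 in limma, lower in KO were 2 of 8 sebaceous, 2 of 8 adipocyte, 2 of 8 muscle and 1 of 5 companion layer and injury genes, where 1.82% of all genes tested were. The adipocyte pair includes Adipoq, the deleted gene. The sebaceous pair was Scd1 and Fasn, and no other gene of that list passed. After adjustment Adipoq alone among all listed genes passed.

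**Figure D5:**
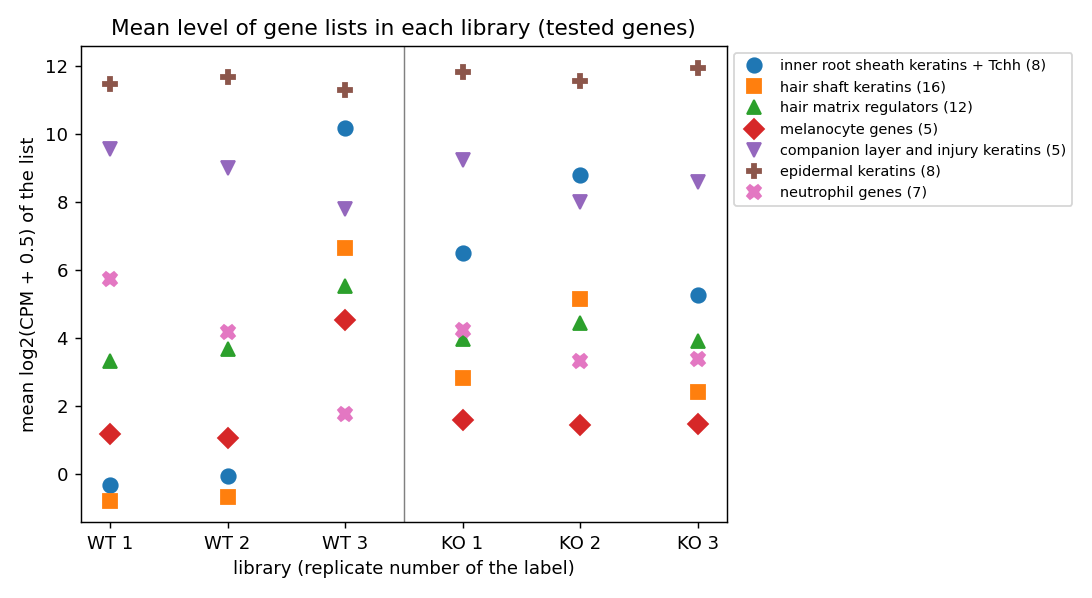
Mean log2(CPM + 0.5) of the tested genes of each list in the 6 libraries, with the number of genes in brackets and 1 point per list and library. The sheath genes and hair shaft keratins are lowest in WT replicates 1 and 2 and highest in WT replicate 3 (10.18 for the sheath genes), the melanocyte genes are raised in WT replicate 3 alone (4.54), and the neutrophil genes are lowest there (1.75).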

How the data were processed

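RNA-seq of bitten ear skin from 3 WT and 3 KO mice was analysed. Total RNA was extracted with a fibrous tissue kit. The authors trimmed the reads, aligned them to mm10 with STAR (v2.7.3a), estimated transcript abundance in Partek Flow (E/M algorithm, in which reads shared by similar genes may be split) and collapsed it to genes. Deposited values are thus CPM, scaled to each library's total, with an offset of 0.0001, which was subtracted here. The sources used here do not say whether counting used strand. All 6 value columns were used. Listed ends were lowered by 1.

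Low values (below 20 reads) were whole to within 0.1 read in 91.9% to 92.6% of cases, so implied reads are estimates and a count model was not the main test. KO and WT were compared by limma (3.58.1, R 4.3.3; lmFit, eBayes with trend, two-sided, no covariate) on log2(CPM + 0.5) after removing genes averaging below 1 CPM, with Benjamini-Hochberg adjustment over the 14306 genes tested. This scale understates changes of low genes. The fit was tested on simulated data. Exact binomial intervals are at 95%. Each library came from 1 mouse, and p-values measure the spread between these libraries. Permuting 3 against 3 exactly reaches no p under 0.1, so no such test was used. Transcript lengths are of GENCODE M21, 1 coding transcript per gene.

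The genes, lists and tests were chosen with earlier results of these data known. Genes eligible to be named, of which those bearing on the 8 are given, were the 8 genes, Adipoq, Gata3, Padi3, Tgm3, Krt74, Krt75, Krt17, Hoxc13, Foxn1, Tchhl1, the 2 most abundant of each list, those past adjustment, and the 10 highest, 5 lowest and 5 highest not beginning with Krt by r. Neighbours were named by position. Alternatives changed the pseudocount, filter, scaling, variance model or block, or left out 1 library. Other genes (Shh, Wnt10a, Lpar6, Krt84, Flg2, Lhx2, Lgr5 and Sox9) were chosen after their values were seen.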

Additional observations from a re-analysis of the deposited data

How the results depend on the processing

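Of 136 values of single genes among the 8 under an alternative, all 136 were higher in KO on the log2 scale, between 0.91 and 9.29, and 5 newly passed an adjusted p of 0.05 in limma, all without WT replicate 3. The number of the 8 called at an unadjusted p below 0.05 was 0 to 8 when 1 library was left out (8 without WT replicate 3) and 0 in all other alternatives. Their median log2 fold change was 1.75 to 6.79 when 1 library was left out, 4.38 and 2.46 with a pseudocount of 0.1 and 2, and 3.32 to 3.73 with the other alternatives. The range of their score between libraries was 8.85 to 12.27 over the 11 alternatives computed for it (pseudocount, scaling and libraries left out). Over all genes, leaving out 1 library gave 147 to 395 lower and 89 to 313 higher genes at an unadjusted p below 0.05, and 0 to 16 after adjustment in limma, where 147 and 0 were without WT replicate 2, 395, 313 and 16 without WT replicate 3 and 89 without KO replicate 3. All 6 libraries gave 260, 152 and 2. The excess of lower genes depended on the scaling. Quantile normalization gave 232 higher and 193 lower genes and median-of-ratios scaling 210 and 215. With the gene Rn45s left out of the library total there were 181 and 224. Limma voom on implied reads gave 1 gene after adjustment. The median of all genes moved by at most 0.04 with the scaling. With the replicate number as a block there were 414 lower genes and 0 of the 8 genes called, with a median of 3.42. Deviations of same-numbered WT and KO libraries correlated at 0.376, -0.306 and -0.222 across genes. With 3 libraries per group and 1 component holding 52.9% of the variance, these values cannot settle whether the numbers pair the mice. The causes were not tested. Depth limits the 7 keratins in WT replicates 1 and 2 (2 and 8 reads).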

Other observations

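The 5 genes whose levels ran most opposite to the score of the 8 sheath genes, by the rule for named genes, moved little. Gpi1, an enzyme of glycolysis, had an r of -0.996 over the 6 libraries, with 167, 167 and 138 CPM in WT libraries and 149, 142 and 149 CPM across KO. Wdr70 (-0.993), Npepps (-0.993), Fgf1 (-0.988) and Stambpl1 (-0.987) ranged by 0.36, 0.44, 0.49 and 0.62 on the log2(CPM + 0.5) scale, against 10.53 for the score. Of all genes compared, 32 had an r of -0.95 or lower.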
